A study of Mus musculus with 12 samples.

Results

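The response of wild-type RAW 264.7 cells to 2 h of lipopolysaccharide (LPS) was read from 4 of the 12 RNA-seq libraries of the study: 2 of untreated wild-type cells and 2 of wild-type cells given LPS. RAW 264.7 is a mouse macrophage line, here labelled with the strain BALB/c and cultured in DMEM with fetal bovine serum and 2 mM glutamine. The other 8 libraries, also in pairs, came from wild-type cells given a Jak inhibitor, wild-type cells given LPS with the Jak inhibitor, untreated Parp14 -/- cells and Parp14 -/- cells given LPS, all of the same line. No source used here gives the LPS dose, which inhibitor was used and how much of it, or how many knockout clones there were. Since the labels number the 2 libraries of a group without naming separate cultures, p-values reflect the spread between libraries, and that spread may be technical. A single transformed line at a single time point limits what the comparison can stand for.

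LPS is a component of the outer membrane of Gram-negative bacteria. Macrophages detect it with CD14, MD-2 and TLR4, and the receptor signals through the adaptors MyD88 and TRIF. MyD88 leads to NF-kB and the MAP kinases and to the early inflammatory genes, while TRIF also leads to IRF3 and interferon beta. Secreted interferon beta then acts back on the cells through its receptor, the Jak kinases and STAT factors, which switch on the interferon-stimulated genes.

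The 4 libraries held 39.44 to 45.66 M reads in genes, and 10899 of 24421 gene symbols reached the minimum of 1 CPM in at least 2 of the 12 libraries. Levels are CPM, read counts scaled to the gene reads of each library, given for replicate 1 and then replicate 2. Changes are differences of log2(CPM + 1) between LPS and untreated cells with their standard error (SE). Their adjusted p-values come from limma with the replicate number as a block, adjusted by the Benjamini-Hochberg method over all genes tested. The scale understates the change of genes near or under 1 CPM. Macrophage markers were present, with Lyz2 (lysozyme) at 8630.3 and 10632 CPM untreated and 8389 and 8267 CPM with LPS and Cd68 at 588 and 599 CPM untreated and 517 and 581 CPM with LPS. Of 24 measured markers of other cell types 15 were at 0 reads in all 4 libraries, and their summed level was 0.887 and 0.725 CPM untreated and 1.1 and 1.17 CPM with LPS. In such bulk libraries fewer cells of a kind and less RNA per cell cannot be told apart.

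Promoters of 6 genes that rose are shown because they hold the sequence motifs through which NF-kB (kB) and the interferon-activated or IRF factors (ISRE) are known to bind DNA. Each is the 250 bases before the RefSeq gene start on GRCm38.p6, written 5′ to 3′ on the strand of the gene. Capitals mark matches to the searched letters on either strand: kB (GGG, any 3 bases, TTCC), ISRE (GAAA, any 2 bases, GAAA) and AP-1 (TGANTCA, where N is any base).
Cxcl2: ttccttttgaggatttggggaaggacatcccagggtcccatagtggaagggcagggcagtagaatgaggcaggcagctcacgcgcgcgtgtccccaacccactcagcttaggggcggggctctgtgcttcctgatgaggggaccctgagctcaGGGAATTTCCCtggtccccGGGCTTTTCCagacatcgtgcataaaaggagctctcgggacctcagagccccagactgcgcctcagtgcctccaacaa
Nfkbia: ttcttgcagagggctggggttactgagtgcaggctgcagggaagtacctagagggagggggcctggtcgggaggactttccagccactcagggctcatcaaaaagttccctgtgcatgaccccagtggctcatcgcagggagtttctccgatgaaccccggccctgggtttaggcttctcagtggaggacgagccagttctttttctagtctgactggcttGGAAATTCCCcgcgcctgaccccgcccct
Ifnb1: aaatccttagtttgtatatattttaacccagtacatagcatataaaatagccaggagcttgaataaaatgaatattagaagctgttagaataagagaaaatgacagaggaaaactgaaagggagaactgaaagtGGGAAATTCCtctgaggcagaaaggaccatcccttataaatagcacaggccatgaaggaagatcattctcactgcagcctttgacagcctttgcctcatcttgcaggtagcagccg
Cxcl10: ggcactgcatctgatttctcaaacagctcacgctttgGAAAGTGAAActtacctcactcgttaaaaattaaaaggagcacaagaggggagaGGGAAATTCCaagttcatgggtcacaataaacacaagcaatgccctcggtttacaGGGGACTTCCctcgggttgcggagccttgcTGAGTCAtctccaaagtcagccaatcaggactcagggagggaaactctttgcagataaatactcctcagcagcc
Ifit1: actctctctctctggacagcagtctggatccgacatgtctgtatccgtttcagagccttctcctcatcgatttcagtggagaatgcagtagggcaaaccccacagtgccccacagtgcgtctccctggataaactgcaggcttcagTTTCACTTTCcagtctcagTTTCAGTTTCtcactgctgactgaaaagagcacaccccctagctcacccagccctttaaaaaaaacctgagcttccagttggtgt
Isg15: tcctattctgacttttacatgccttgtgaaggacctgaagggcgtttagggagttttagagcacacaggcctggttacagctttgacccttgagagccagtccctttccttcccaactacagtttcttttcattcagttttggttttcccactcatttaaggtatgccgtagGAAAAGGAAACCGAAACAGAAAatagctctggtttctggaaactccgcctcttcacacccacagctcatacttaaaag
The neutrophil chemokine gene Cxcl2 (chr5:90903649-90903898, plus strand) held 3 kB matches, which began 97, 96 and 78 bases before the start, the first pair overlapping on opposite strands. Nfkbia (chr12:55492648-55492897, minus strand), the gene of the inhibitor IkB alpha, held 1 kB match at 29 bases. Ifnb1 (chr4:88522795-88523044, minus strand), the gene of interferon beta, held 1 kB match at 116 bases. Cxcl10 (chr5:92348890-92349139, minus strand), a lymphocyte chemokine gene, held an ISRE match at 213, kB matches at 159 and 104 and an AP-1 match at 74 bases. Ifit1 (chr19:34640639-34640888, plus strand), the gene of an antiviral RNA-binding protein, held ISRE matches at 104 and 85 bases. Isg15 (chr4:156200819-156201068, minus strand), the gene of a ubiquitin-like protein, held 3 overlapping ISRE matches at 78, 72 and 66 bases. A match is a string of letters and was not tested as a binding site.

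Over all genes tested, LPS moved RNA widely. Under scaling to gene reads 1959 genes were higher (18%) and 6847 lower (62.8%), and the median change of all genes was -0.302. After rescaling by the median of ratios, which sets the typical gene near no change (median -0.04), the split was 3817 higher (35%) and 4380 lower (40.2%). That choice moves the direction of many small changes and also their size. Sizes below are those under gene-read scaling unless another setting is named. A gene is said below to have risen or fallen only where both scalings called it the same way. By that rule 1959 genes rose (18% of those tested) and 4380 fell (40.2%), and 518 rose (4.75%) and 663 fell (6.08%) at least 2-fold in both scalings. The libraries of the 2 groups did not overlap for 9101 genes (83.5%). Transcripts of the 518 genes took 2.27 and 2.52% of gene reads in the untreated libraries and 12.3 and 12.5% in the LPS libraries. The 663 genes went from 3.56 and 3.38% to 1 and 1%. The plot of change against level shows both sets over the full range of expression.

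**Figure D1:**
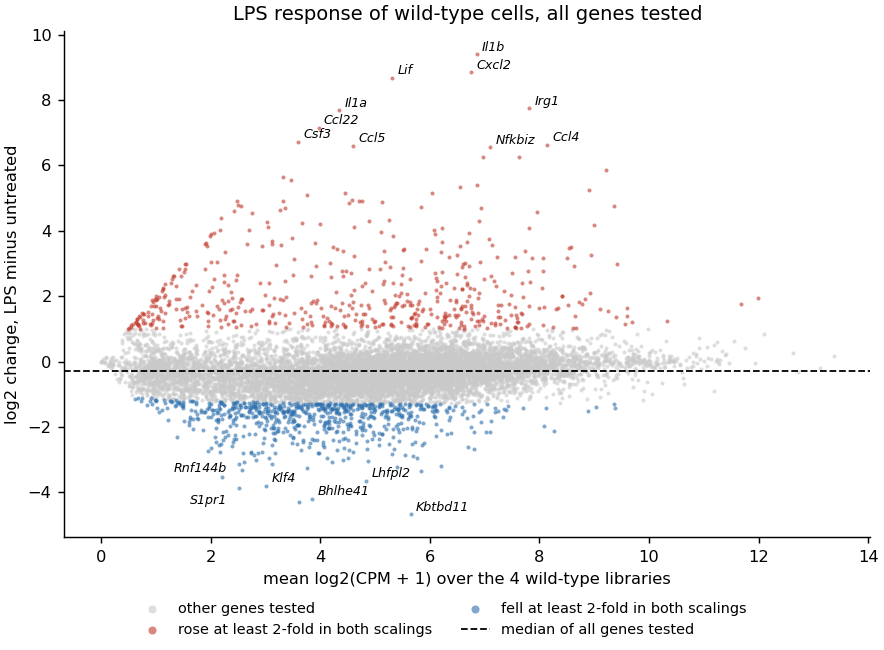
Change with LPS in wild-type cells (log2, vertical) against the mean log2(CPM + 1) of the 4 libraries (horizontal), one point per gene tested; red and blue points rose or fell at least 2-fold in both scalings (518 and 663 genes), and the dashed line is the median of all genes, -0.302. The largest rises, up to 9.4 for Il1b, exceed the largest falls, down to -4.67 for Kbtbd11.

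Of the 12 largest rises 9 were of genes of cytokines and chemokines, and the others were of 2 enzymes and of a nuclear IkB protein. Il1b, the gene of interleukin-1 beta (chromosome 2, 129364570 to 129371139, minus strand), stood at 4.39 and 2.67 CPM untreated and 3284 and 2750.4 CPM with LPS. The 2 LPS libraries lay far above the 2 untreated ones, and the change of 9.4 (SE 0.13, adjusted p = 4.38e-16) was 855-fold by the means. Cxcl2 (chromosome 5, 90903871 to 90905938, plus strand) stood at 3.96 and 4.15 CPM and then at 2348 and 2302 CPM, with close replicates in both groups, a change of 8.85 (SE 0.045, adjusted p = 2.57e-21). Lif (chromosome 11, 4257557 to 4272514, plus strand), a cytokine of the interleukin-6 family, went from 1.14 and 0.8 to 806 and 805 CPM, which was 830.0-fold (8.68, SE 0.067, adjusted p = 2.77e-19). Irg1 (chromosome 14, 103046977 to 103056573, plus strand), the gene of the enzyme that makes itaconate, went from 13.9 and 14.9 to 3319 and 3296 CPM, a change of 7.75 (SE 0.058). Il1a, next to Il1b on chromosome 2, was at 0.33 and 0.5 CPM untreated and 323 and 259 CPM with LPS. For these 5 genes the lower LPS library was more than 100-fold above the higher untreated library.

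Ccl22 (chromosome 8, 94745590 to 94751699, plus strand), a chemokine for regulatory and helper T cells, was at 0.279 and 0.35 CPM and then at 172 and 201 CPM (7.15, SE 0.12, adjusted p = 1.63e-15). Csf3 (chromosome 11, 98701263 to 98703629, plus strand), which codes for the granulocyte growth factor G-CSF, went from 0.203 and 0.15 to 116 and 131 CPM (6.72, SE 0.084). Ccl4 (chromosome 11, 83662584 to 83664683, plus strand) and Ccl5 (chromosome 11, 83525778 to 83530518, minus strand) code for chemokines of the CC family. Ccl4 went from 19.5 and 37.8 to 2593 and 3016 CPM, with the untreated libraries further apart than those of the other genes named here, and Ccl5 went from 1.32 and 1.57 to 216 and 260.4 CPM. Nfkbiz (chromosome 16, 55811375 to 55838899, minus strand), the gene of the nuclear IkB zeta, went from 13.2 and 13.2 to 1407 and 1256 CPM (6.55, SE 0.071). Ptgs2 (chromosome 1, 150100031 to 150108227, plus strand), the gene of inducible cyclooxygenase, went from 16.8 and 28 to 1695 and 1768 CPM, and Cxcl10 from 10.6 and 17.1 to 1036 and 1162 CPM. No library of either group overlapped the other for these genes, which was a condition for naming them. Together the 12 genes took 0.00856 and 0.0121% of the gene reads of the untreated libraries and 1.73 and 1.72% of those of the LPS libraries.

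The 12 named genes that fell include transcription factors, a receptor, an RNA-binding protein and signalling proteins, and no cytokine or chemokine. Kbtbd11 (chromosome 8, 15011025 to 15033333, plus strand), a BTB and kelch domain gene, stood at 269 and 236 CPM untreated and at 9.33 and 8.61 CPM with LPS, and fell by 4.67 on the log2 scale (SE 0.082, adjusted p = 2.77e-15), or 28.2-fold. Bhlhe41 (chromosome 6, 145858243 to 145865558, minus strand), a transcriptional repressor, went from 78.8 and 46.8 to 2.54 and 2.22 CPM (-4.19, SE 0.21). Replicate 1 was the higher untreated library in each of these, as in Klf4 (chromosome 4, 55527143 to 55532466, minus strand), a Kruppel-like factor, which went from 34.8 and 24.2 to 1.25 and 1.07 CPM (-3.8, SE 0.094). S1pr1 (chromosome 3, 115710433 to 115715072, minus strand), a receptor for sphingosine-1-phosphate, went from 31.5 and 13.7 to 0.788 and 0.244 CPM (-3.87, SE 0.21). Zfp36l2, which codes for a protein that binds AU-rich mRNA, went from 221 and 149 to 17.8 and 16 CPM (-3.36, SE 0.084). Bmf, a BH3-only gene that promotes apoptosis, went from 21.4 and 14.8 to 0.92 and 0.829 CPM (-3.33, SE 0.2).

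The remaining falls were of similar size. Lhfpl2 went from 101 and 100.1 to 7.56 and 6.73 CPM and the ubiquitin ligase gene Rnf144b from 17.9 and 12.3 to 0.394 and 0.317 CPM. Sesn1, the gene of sestrin 1, a stress-response protein that restrains mTORC1, went from 147 and 111 to 13.1 and 12.4 CPM, and Fam78a from 42.1 and 39.5 to 3.39 and 3.41 CPM. St8sia4, the gene of a polysialyltransferase, went from 244 and 205 to 25.9 and 21.3 CPM, and Shb, that of an SH2 adaptor, from 27.6 and 22.4 to 1.84 and 2.05 CPM. Every LPS library was under every untreated library for these genes, as the rule for naming them required, with changes of -3.14 to -3.64. All 24 named genes kept their direction and their call under each of the 13 alternative settings tried. Median-of-ratios rescaling, counted among these settings, was part of the naming rule and could not fail. The named genes were also picked as the largest called changes, so the other settings were a weak check.

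**Figure D2:**
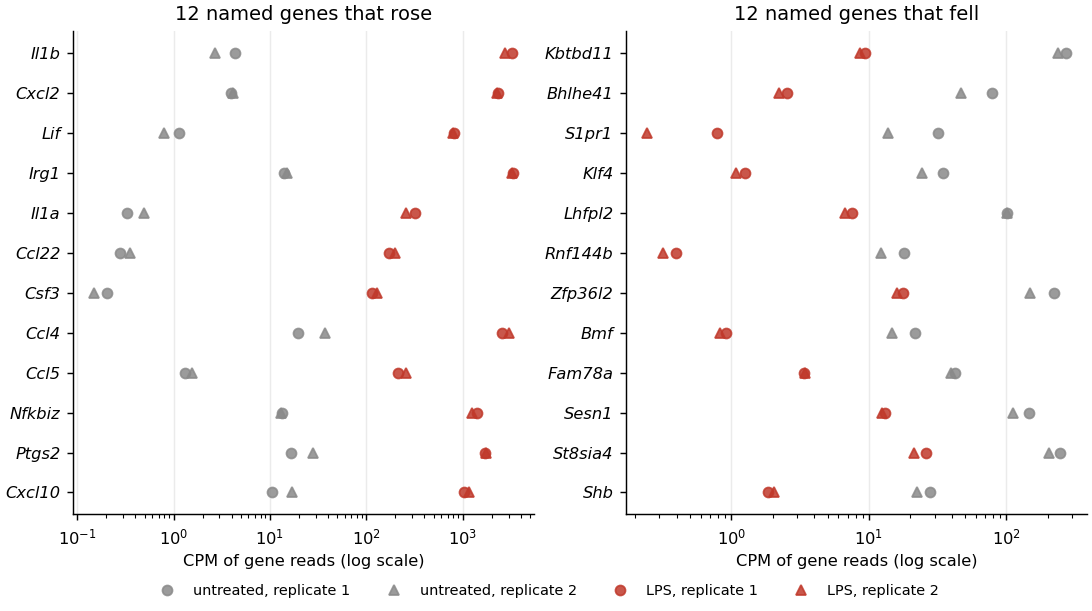
Level of the 12 named genes that rose (left) and the 12 that fell (right) in each of the 4 libraries, in CPM of gene reads on a log axis; grey is untreated, red is LPS, circles are replicate 1 and triangles replicate 2. The groups do not overlap for any gene, which the rule for naming them required. Levels run from Il1b at 4.39 and 2.67 against 3284 and 2750.4 CPM to Kbtbd11 at 269 and 236 against 9.33 and 8.61 CPM.

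Gene lists by role were then counted against the background of 18% of all tested genes rising and 40.2% falling. The counts cover the members that reached the minimum level. A member that reached it only with LPS had to differ, so these counts describe the measured members and are no test of a list. For every gene said to have risen or fallen whose levels are given below, the LPS libraries did not overlap the untreated ones. The plot of list members shows the range within each list, which was often wide and in both directions.

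**Figure D3:**
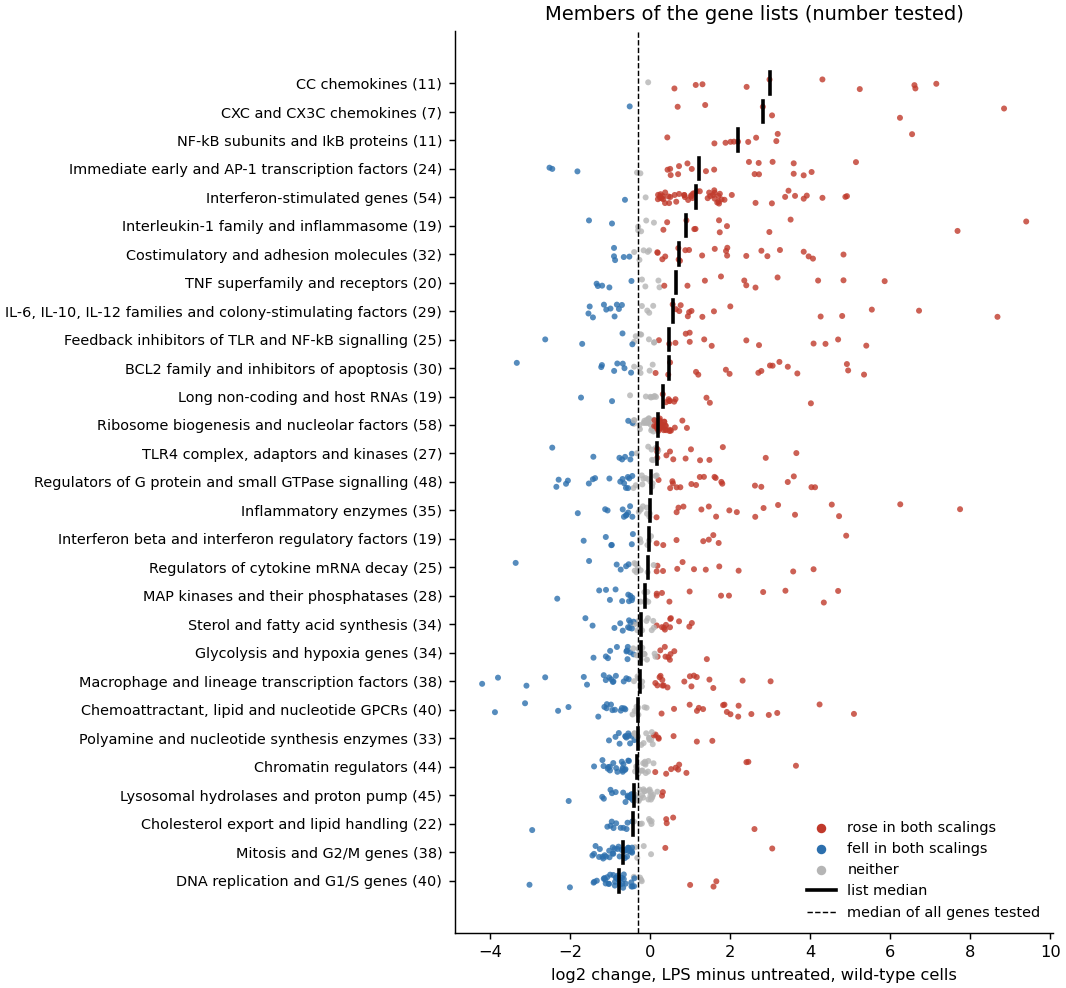
Change with LPS (log2) of each tested member of 29 gene lists, ordered by list median (black bar); red members rose and blue members fell in both scalings, grey did neither, and the number tested is in brackets. The dashed line is the median of all genes tested, -0.302, and the list medians run from 2.99 for CC chemokines to -0.77 for DNA replication and G1/S genes.

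Genes of LPS sensing moved in both directions. Of the 27 listed genes of the TLR4 complex, its adaptors and kinases 13 rose and 7 fell (median 0.18). Tlr4 (chromosome 4, 66827584 to 66930284, plus strand) went from 113 and 88.5 to 20.9 and 14.7 CPM and fell by 2.44 (SE 0.057, adjusted p = 5.31e-14). Its co-receptor Cd14 went the other way, from 813 and 844 to 2004 and 1941 CPM (1.25, SE 0.059). Ly96, the gene of MD-2, was at 4.79 and 4.37 CPM untreated and 6.11 and 4.83 CPM with LPS and was not called alike in both scalings. Of the adaptors, Ticam1, the gene of TRIF, rose by 1.82 and Myd88 by 0.41, while Ticam2 fell by 0.49. Among the kinases and ligases Peli1, a ubiquitin ligase of the receptor complex, went from 27.5 and 28 to 372 and 352 CPM (3.66), Ikbke, a kinase upstream of IRF3, from 34.2 and 34.6 to 271 and 253 CPM (2.89) and Irak2 from 43.3 and 47.2 to 125 and 131 CPM (1.48). Irak4 (-0.76) and Tab1 (-1.42) fell.

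All 11 tested genes of NF-kB subunits and IkB proteins rose, 10 of them at least 2-fold (median 2.2). NF-kB dimers are held in the cytoplasm by IkB proteins, and several of these genes are NF-kB targets themselves. Rel, the subunit c-Rel, went from 27.5 and 24.7 to 257 and 236 CPM (3.19, SE 0.061), and the precursors Nfkb2 and Nfkb1 rose by 2.45 and 2.1. Rela, the main activating subunit, moved least, from 64.7 and 67 to 88.4 and 90 CPM (0.43, SE 0.056). Nfkbia, with its kB match close to the start, went from 90.2 and 87.1 to 873 and 729.8 CPM (3.16, SE 0.099, adjusted p = 1.21e-12), and Nfkbie from 18 and 15.9 to 109 and 115 CPM. The nuclear IkB genes Bcl3 and Nfkbid rose by 2.2 and 1.61.

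Feedback inhibitors limit this signalling. Of 25 tested genes of this list 14 rose, 4 fell and 7 did neither. Tnfaip3, the gene of the deubiquitinase A20, went from 15 and 19.1 to 801 and 718 CPM (5.4, SE 0.13), and its partner Tnip1 from 84.9 and 92 to 432 and 518 CPM. Socs3, an inhibitor of cytokine receptor signalling, went from 29 and 18.1 to 650.3 and 592 CPM (4.7). Cish, of the same family, had 0 reads in both untreated libraries and 856 and 866 reads with LPS, at least 528-fold higher against a floor of 3 reads over the untreated group. The members that fell included Inpp5d, the gene of the phosphatase SHIP1, from 288 and 289 to 89 and 88 CPM (-1.69), Tnfaip8l2 from 45.9 and 35.6 to 6.09 and 5.44 CPM (-2.62), and the deubiquitinase Cyld (-0.69).

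Among the MAP kinases and their phosphatases rises and falls were equal in number. Of 28 tested members 11 rose and 11 fell, 39.3% each, beside 18% rising and 40.2% falling of all genes. The share of falls was thus close to the background. The dual-specificity phosphatases Dusp5, Dusp1, Dusp2 and Dusp4 rose by 4.7, 4.34, 3.38 and 2.83; Dusp1, which acts on p38 and JNK, went from 7.99 and 7.02 to 187 and 157 CPM. Dusp6, which is specific for ERK, went the other way, from 30.7 and 19.4 to 3.83 and 4.39 CPM (-2.32, SE 0.15), with Dusp7 (-1.27) and the ERK pathway inhibitors Spry2 (-1.1) and Spred2 (-1). Mapkapk2, the kinase under p38, rose by 0.99 to 1344 and 1504 CPM. Mapk14, the gene of p38 alpha itself, fell by 0.45.

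Immediate early genes were mostly higher at 2 h, with clear exceptions. Of 24 tested members 19 rose and 3 fell. Myc went from 1.83 and 3.75 to 129 and 129 CPM (5.15, SE 0.19), Csrnp1 from 15.1 and 16.3 to 285 and 261 CPM (4.04) and Egr2 from 7.28 and 12.5 to 160.2 and 141 CPM (3.84). Nr4a3 went from 0.0761 and 0.075 to 11.3 and 12.7 CPM, and Maff from 1.37 and 1.67 to 33.1 and 25.9 CPM. The AP-1 genes split: Junb went from 81.3 and 60.2 to 572 and 378 CPM (2.72), Jund rose by 2.47 and Atf3 by 2.72. Fos went from 90.7 and 89.7 to 14.2 and 15.8 CPM (-2.51, SE 0.063, adjusted p = 1.06e-13) and Jun from 27.9 and 22 to 7.45 and 5.36 CPM (-1.81, SE 0.098), below the untreated level in both LPS libraries. Klf10 fell by 2.44, beside Klf6, which rose by 1.4.

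Regulators of mRNA stability, which set how long cytokine transcripts last, also divided, with 11 risen and 6 fallen of 25. The endoribonuclease gene Zc3h12a (Regnase-1) went from 18 and 16.5 to 293 and 326 CPM (4.09) and its relative Zc3h12c from 37 and 43.2 to 478 and 498 CPM (3.58). Of the 3 related genes of AU-rich element binding proteins, Zfp36 (tristetraprolin) went from 41.8 and 45.2 to 187 and 226 CPM (2.21), while Zfp36l1 (-0.6) and Zfp36l2 (-3.36) fell, the former not called without the block (adjusted p = 0.0615). Btg1 and Btg2, which recruit deadenylases, rose by 1.39 and 1.73, and Tob1, of the same family, fell by 1.52.

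Of the interleukin-1 family and inflammasome genes 24 were listed and 19 tested, of which 12 rose and 2 fell. Beside Il1b and Il1a, the receptor antagonist Il1rn went from 27.5 and 41.6 to 250.5 and 300.1 CPM (2.98), and the sensor Nlrp3 from 105 and 120.0 to 1274 and 1314 CPM (3.51, SE 0.068). The inflammatory caspase Casp4 rose by 1.74, whereas Casp1, at 65.3 and 51.8 and then 58.3 and 38.2 CPM, was not called alike in both scalings, as was Gsdmd. The sensors Nlrp1b and Nlrc4, fell (-1.52 and -0.95). Pycard, the gene of the adaptor ASC, did not reach the minimum level and was at 0.0254 and 0.175 CPM untreated and 0.0876 and 0 CPM with LPS. The receptor gene Il1r1 was also under it, with 0 and 0 reads untreated and 4 and 4 with LPS, while Il1rl1, the receptor of interleukin-33, went from 49.9 and 60.7 to 114 and 126 CPM.

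Among the tumour necrosis factor genes Tnf led the rises, and the receptors divided. Of 34 listed genes 20 were tested, with 11 risen and 5 fallen. Tnf (chromosome 17, 35199381 to 35202007, minus strand) went from 69.5 and 84.4 to 4609 and 4424 CPM (5.86, SE 0.072), and its neighbours went from 3.9 and 3.22 to 28.4 and 26.3 CPM (Ltb) and from 0.38 and 0.2 to 3.46 and 3.34 CPM (Lta). Reads of these adjacent genes cannot be assigned with certainty where transcripts overlap, since the strand setting of the counting is not given. Tnfsf9 (4-1BB ligand) rose by 2.41 to 175 and 187 CPM. Of the receptors, Cd40 went from 3.27 and 3.4 to 109.8 and 137 CPM (4.83), Fas from 2.46 and 2.97 to 71.2 and 63.4 CPM (4.2) and Tnfrsf1b, the inducible TNF receptor, from 73 and 51.1 to 549 and 581 CPM (3.19). Tnfrsf1a, the constitutive TNF receptor, was at 113 and 112 CPM untreated and 96 and 100 CPM with LPS and not called alike in both scalings. The lymphotoxin receptor Ltbr fell by 1.01 and the decoy-like Tnfrsf22, Tnfrsf23 and Tnfrsf26, which are close relatives of each other, fell (-1.3, -1.2 and -1.33).

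In the families of interleukin-6, 10 and 12 and the colony-stimulating factors several cytokine genes rose while genes of receptor chains fell. Of 40 listed genes 29 were tested, with 15 risen and 10 fallen. Il6 went from 0.101 and 0.05 to 34.1 and 24.6 CPM (4.8, SE 0.16), Il27 from 0.634 and 0.6 to 67.6 and 81.8 CPM (5.54) and Osm from 3.63 and 2.25 to 11.5 and 10 CPM (1.6). The receptor chains Il6ra and Il6st, through which interleukin-6 signals, fell (-1.54 and -1.09). Csf1, the gene of the macrophage growth factor M-CSF, went from 0.887 and 0.85 to 34.1 and 35.7 CPM (4.26, SE 0.11), and its receptor gene Csf1r from 2089 and 1998 to 1259 and 1253 CPM (-0.7, SE 0.055). Csf2, at 0 reads in both untreated libraries, had 141 and 121 reads with LPS (at least 80-fold higher), and Csf2rb fell by 0.99. Il10 reached 0.942 and 1.05 CPM. Il12b was below the minimum level at 2 and 1 reads with LPS and 0 untreated, and Il12a had 0 reads in the 4 libraries, which allows up to 3 reads in each.

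Chemokine genes had the highest list medians. Of 11 tested CC chemokine genes 10 rose, and of 7 tested CXC and CX3C genes 6 rose and 1 fell, out of 18 and 14 listed. Ccl3 went from 56.3 and 106 to 2623 and 3336 CPM (5.24), Ccl2 from 4.74 and 6.75 to 127 and 136 CPM (4.31) and Ccl9 from 218 and 268 to 1883 and 1956 CPM (2.99). Per kilobase of exon, Ccl4 and Ccl3 reached 4249.7 and 3890.2 CPM with LPS, Tnf 2756, Il1b 1582 and Cxcl2 1124, beside 6328 for Lyz2 (lysozyme). Cxcl11, a ligand of CXCR3 like Cxcl10, went from 0.482 and 0.525 to 11.4 and 11.5 CPM, and Cx3cl1 (fractalkine) from 1 and 0 to 305 and 232 reads. Cxcl9, the third CXCR3 ligand, stayed under the minimum at 0.254 and 0.175 CPM untreated and 0.438 and 0.244 CPM with LPS, and so did Cxcl1 at 0.263 and 0.195 CPM with LPS. Cxcl14 fell by 0.51, a change not called by edgeR (adjusted p = 0.0515) or DESeq2 (0.114).

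Receptors for chemoattractants, lipids and nucleotides moved in both directions, since 17 of 40 tested rose and 15 fell. These were 42.5 and 37.5%, beside 18% rising and 40.2% falling of all genes, so the share of falls was close to the background. Those that rose included Ccrl2, an atypical receptor that binds chemerin, from 1.55 and 1.1 to 76.7 and 79.5 CPM (5.1), Hcar2, which binds niacin and beta-hydroxybutyrate, from 1.83 and 2 to 51.4 and 56.6 CPM (4.24), and Gpr84, which binds medium-chain fatty acids, from 71 and 83.2 to 648 and 765 CPM (3.18). The complement receptors C5ar1 and C3ar1 rose by 2.2 and 2.01, and the formyl peptide receptors Fpr1 and Fpr2, both under 0.1 CPM untreated, reached 3.48 and 3.92 CPM (Fpr1) and 3.26 and 2.71 CPM (Fpr2). Beside S1pr1, the receptors that fell most were Lpar5, for lysophosphatidic acid, from 17 and 15 to 0.766 and 1.15 CPM (-3.12), Cxcr4 from 7.35 and 3.05 to 0.197 and 0.171 CPM (-2.3) and Gpr183, for oxysterols, from 94.4 and 98.9 to 24 and 21.6 CPM (-2.04). The prostaglandin E receptors split, with Ptger2 at 0.0507 and 0.05 CPM and then 6.64 and 7.85 CPM (2.97), Ptger1 lower (-1.29) and Ptger4 not called alike in both scalings.

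Enzymes of inflammation rose in 17 and fell in 10 of 35 tested. In prostaglandin synthesis, Ptgs2 and the inducible synthase Ptges rose (the latter from 0.837 and 0.85 to 6.81 and 7.8 CPM), while the constitutive Ptgs1 went from 88.8 and 61.6 to 40.6 and 30.1 CPM (-1.06), and Ptges2 (-0.65) and the phospholipase Pla2g4a (-0.6) fell. The leukotriene genes Alox5, Alox5ap and Ltc4s fell (-0.5, -0.59 and -0.55). Under median-of-ratios rescaling the falls of Alox5 and Alox5ap were smaller (-0.21 and -0.3). The fall of Ltc4s was not called without the block (adjusted p = 0.142), with DESeq2 (0.176) or without LPS replicate 1 (0.0623). Hdc, which makes histamine, went from 0.431 and 0.375 to 27.6 and 36.3 CPM (4.54), and Nos2, which makes nitric oxide, from 0.0761 and 0.075 to 9.72 and 15.4 CPM (3.62). In plasminogen activation, the receptor Plaur went from 41 and 57.1 to 452 and 455 CPM (3.2), whereas the activator Plau went from 115 and 199 to 40.7 and 44.7 CPM (-1.8). The superoxide dismutase Sod2 rose by 1.98. Ido1 had 0 reads in the 4 libraries (up to 3 reads each allowed by that count).

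Interferon beta and its downstream genes were already higher at 2 h. Ifnb1 (chromosome 4, 88522025 to 88522774, minus strand) had 2 and 0 reads in the untreated libraries and 1447 and 1138 with LPS, or 31.7 and 27.7 CPM (4.9, SE 0.12, adjusted p = 9.26e-14). Of 19 genes of interferon beta, its receptor, Jak kinases, STAT and IRF factors 8 rose and 6 fell. Irf1 went from 28.4 and 24.4 to 95.4 and 82.9 CPM (1.72), and Irf7 from 26 and 36.8 to 72 and 87.5 CPM (1.33). Stat2, a factor of interferon signalling, rose by 0.33 (adjusted p = 0.107 without the block). Irf8 (-1.1), the receptor chain Ifnar2 (-0.97) and the co-repressor Irf2bp2 (-1.66) fell.

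Of 54 tested interferon-stimulated genes 52 rose and 1 fell, 32 of them rising at least 2-fold (median 1.14). Sizes varied widely. Ifit1 went from 3.42 and 4.52 to 143 and 155 CPM (4.92), Isg15 from 4.69 and 6.32 to 172 and 208 CPM (4.88), Oasl1 from 22.9 and 29 to 491 and 571 CPM (4.31) and Ifih1, the RNA sensor MDA5, from 24.6 and 27.8 to 396 and 422 CPM (3.92). Slfn2 went from 103 and 120.0 to 1295 and 1178 CPM and Parp14, an ADP-ribosyltransferase gene, from 76.4 and 99.7 to 315 and 419 CPM (2.04). At the low end were Trim25 (0.2) and the RNA-sensing synthetases Oas3 (0.25) and Oas2 (0.26), whose libraries overlapped between the groups. None of these 3 was called without the block (adjusted p = 0.259, 0.416 and 0.412 by limma). Pml fell by 0.63, and Uba7, the enzyme that activates ISG15, was at 27.1 and 31.1 CPM untreated and 24.8 and 29 CPM with LPS, not called alike in both scalings. Reads of near-identical members of the Ifit, Oas, Gbp and Slfn families may be split between copies.

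The list of the BCL2 family and inhibitors of apoptosis holds genes that oppose and genes that promote cell death. Of 30 tested members 17 rose and 8 fell. Traf1 went from 11.5 and 16.5 to 594 and 608 CPM (5.35), Gadd45b from 4.11 and 3.42 to 153 and 133 CPM (4.92) and Cflar, an inhibitor of caspase-8, from 82.3 and 85.1 to 582 and 581 CPM (2.78). The anti-apoptotic Bcl2a1b and Bcl2a1d, near-identical copies, rose by 3.44 and 3.23, Bcl2l1 by 1.99 and Mcl1 by 1.21, while Bcl2 fell by 1.22. The BH3-only killers also divided, since Bcl2l11 (Bim) went from 27.6 and 23.8 to 177 and 169 CPM (2.71) as Bmf fell and Bid fell by 0.82.

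Surface molecules of antigen presentation and adhesion rose in 22 and fell in 5 of 32 tested. Cd83 went from 64.6 and 45.3 to 1028 and 833 CPM (4.07) and Icosl from 8.42 and 7.17 to 131 and 141 CPM (3.96). The costimulatory Cd80 rose by 2.41 and Cd86 by 0.72, and the checkpoint ligand Cd274 by 1.93. Clec4e (Mincle), a receptor for mycobacterial glycolipid, went from 152 and 166 to 1703 and 1356 CPM (3.25), the fibronectin receptor subunit Itga5 from 126 and 162 to 1031 and 1170.4 CPM (2.93) and Icam1 from 93.3 and 109 to 672 and 727 CPM (2.78). Itga4 went the other way, from 3229 and 3131 to 1639 and 1773 CPM (-0.9), and Selplg, the selectin ligand, fell by 0.87.

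Regulators of small GTPases rose in 20 and fell in 16 of 48. The exchange factor Arhgef3 went from 5.58 and 4.22 to 103 and 99.8 CPM (4.12), Cdc42ep2 from 0.38 and 0.85 to 25.8 and 24.6 CPM (4.03) and Rasgef1b from 16.5 and 18.3 to 192 and 206 CPM (3.44). Rgs16, a regulator of G protein signalling, rose by 3.59, and Rgs14 and Rgs2 fell (-2.34 and -1.01), Rgs2 not with DESeq2 (adjusted p = 0.0615). The Ras inhibitor Rasa3 went from 161 and 142 to 34.1 and 27 CPM (-2.28) and the Rab5 exchange factor Rin2 from 163 and 139 to 35.5 and 33.4 CPM (-2.1).

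Transcription factors of the macrophage lineage rose and fell in similar number, 17 risen and 16 fallen of 38. These were 44.7 and 42.1%, beside 18% rising and 40.2% falling of all genes, so the share of falls was close to the background. Beside Bhlhe41 and Klf4, Id2 went from 37.9 and 29.2 to 4.29 and 4.88 CPM (-2.62), and the nuclear receptor Rxra and the lysosomal regulator Tfeb fell (-1.65 and -1.57). Cebpd went from 7.56 and 3.7 to 67.6 and 37.2 CPM (3.01), Ets2 from 57.4 and 74 to 306 and 352 CPM (2.31) and Id3 from 36.1 and 26.4 to 99.8 and 77.9 CPM (1.49). Spi1, the gene of the lineage-determining factor PU.1, went from 282 and 286 to 564 and 603 CPM (1.04), and Mitf rose by 1.1. Runx1 and Cebpa fell (-0.91 and -0.59).

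Chromatin regulators fell more often than they rose, with 19 and 10 of 44, a share of falls close to the background. The histone H3K27 demethylase Kdm6b stood out, from 19.2 and 20.9 to 259 and 266 CPM (3.65, SE 0.11), with Jdp2 (2.46) and Tet2 (2.41). Kdm6a, the paralog of Kdm6b, was at 35.3 and 33.2 CPM untreated and 29.5 and 29.4 CPM with LPS and not called alike in both scalings. The deacetylases Hdac5 (-1.4) and Hdac4 (-1.16) fell, and so did Dnmt1 (-1.06).

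Most proliferation genes fell. Of 40 genes of DNA replication and G1/S 33 fell and 3 rose, and of 38 mitotic genes 32 fell and 2 rose, against a background of 40.2% falling. The falls were mostly under 2-fold, with 5 and 3 at least 2-fold in both scalings. E2f2 went from 61.2 and 58.4 to 7.51 and 5.68 CPM (-3.01, SE 0.077), the licensing factor Cdc6 from 48.5 and 55.4 to 12.1 and 12.3 CPM (-2) and cyclin E1 (Ccne1) from 47.4 and 52.4 to 17.9 and 18.4 CPM. Cyclin D1 (Ccnd1, -1.11), Mki67 (-1.19) and Plk1 (-1.27) fell. The cell cycle inhibitors did not move together, since Cdkn1a (p21) went from 136 and 169.9 to 459 and 507 CPM (1.66) and Cdkn1b (p27) from 28.1 and 22.9 to 9.9 and 9.14 CPM (-1.33). Plk2 went from 8.14 and 16.3 to 89.7 and 119 CPM (3.05).

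Of 58 ribosome biogenesis genes, among them many known targets of Myc, 37 rose and 2 fell, none by 2-fold (range -0.54 to 0.92). Rrs1 was highest, from 119.8 and 124 to 237 and 226 CPM, with Nop58 (0.81) and Npm1 (0.62). Of 33 enzymes of polyamine and nucleotide synthesis 7 rose and 12 fell (21.2 and 36.4%), both close to the background of 18 and 40.2%. Odc1, the first enzyme of polyamine synthesis and a Myc target, went from 327 and 383 to 925 and 1179 CPM (1.56), and the pyrimidine and purine enzymes Cad and Ppat fell (-0.59 and -0.78).

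Lipid genes showed opposite members within a pathway. Abca1, which exports cholesterol to apolipoprotein, went from 58.3 and 52.5 to 348 and 338 CPM (2.61, SE 0.054), and Abcg1, which exports it to HDL, from 162 and 140.4 to 18.9 and 18.5 CPM (-2.94, SE 0.052). Of 22 genes of cholesterol export and lipid handling 4 rose and 11 fell (18.2 and 50%), beside 18% rising and 40.2% falling of all genes. In sterol and fatty acid synthesis 11 rose and 11 fell of 34. The early enzyme Idi1 (1.05) rose, and the late Dhcr7 (-1.61) and the desaturase Scd2 (-1.43) fell. In glycolysis and hypoxia genes, 9 risen and 11 fallen of 34, the glucose transporter Slc2a1 went from 106 and 125 to 295 and 324 CPM (1.42), while Hk1 fell by 1 and the abundant Gapdh, Ldha and Pkm were not called alike in both scalings.

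Of 45 genes of lysosomal hydrolases and the proton pump 21 fell and 2 rose. The share of falls, 46.7%, was close to the background of 40.2%. Under median-of-ratios rescaling alone 15 were higher and 21 lower. The heparan sulfatase Sgsh went from 37.8 and 32.6 to 7.82 and 7.85 CPM (-2.03), with Idua (-1.19) and Neu1 (-1.15), whereas the abundant cathepsins Ctsb, Ctss and Ctsz were not called alike in both scalings. Of 294 genes named Zfp 147 fell and 31 rose (50 and 10.5%), and of 191 solute carriers 96 fell and 35 rose (50.3 and 18.3%). Over all genes 40.2% fell and 18% rose. Among 19 tested long non-coding and host RNAs 10 rose and 2 fell. Mir155hg, the host of the inflammatory miR-155, went from 0.0761 and 0.175 to 18.3 and 16.3 CPM (4.02). The nuclear RNAs Neat1 and Malat1 fell, from 183 and 187 to 50.8 and 60 CPM (-1.72) and from 809 and 892 to 485 and 399 CPM (-0.95).

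Of the 15 tested macrophage markers 6 rose and 4 fell. The Fc receptor Fcgr1 went from 116 and 109 to 33.1 and 26.5 CPM (-1.89), Cd68 and Lyz2 were not called alike in both scalings, and Msr1, a scavenger receptor, rose by 0.41.

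Some genes passed between near silence and clear expression. Below 1 CPM in both untreated libraries and at least 5 CPM in both LPS libraries were 37 genes. Among them were cytokine and chemokine genes (Il1a, Il6, Il27, Csf1, Csf3, Ccl22, Cx3cl1, Cxcl11 and Ifnb1), Prdm1, a transcriptional repressor, at 0.0761 and 0.2 CPM and then 30.9 and 28.1 CPM, and the vasoactive peptide genes Edn1 (0.101 and 0.025 to 13.7 and 17 CPM) and Adm (0.101 and 0.1 to 5.72 and 7.05 CPM). Olr1, a receptor for oxidised lipoprotein, went from 0.71 and 0.925 to 53.7 and 53.6 CPM, Saa3, an acute phase gene, from 0.38 and 0.45 to 76.6 and 62.3 CPM and Marcks, a substrate of protein kinase C, from 0.177 and 0 to 27.9 and 23.4 CPM. In the reverse direction there were 10 genes, which included Bmf, S1pr1, Rnf144b, the Polycomb gene Cbx8 (8.87 and 9.5 to 0.635 and 0.585 CPM) and Angptl4 (10.8 and 10.8 to 0.679 and 0.756 CPM), which inhibits lipoprotein lipase.

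Genes that rose at least 8-fold in both scalings had a shorter median span than all genes. Their median span from start to end was 9.42 kb (103 genes, GENCODE M21 on GRCm38) with a median of 4 exons in the longest transcript. The genes that rose at least 2-fold had 18.6 kb and 6 exons, those that fell 25.8 kb and 8 exons, and all genes tested 22.8 kb and 8 exons. The middle 50% of spans was 5.05 to 25 kb for the first set and 10 to 51.2 kb for all genes, so the sets overlap, as the plot of spans shows. The first set also had the lowest median untreated level, 5.63 CPM beside 37.7 CPM for all genes, and the part of that difference was not tested.

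**Figure D4:**
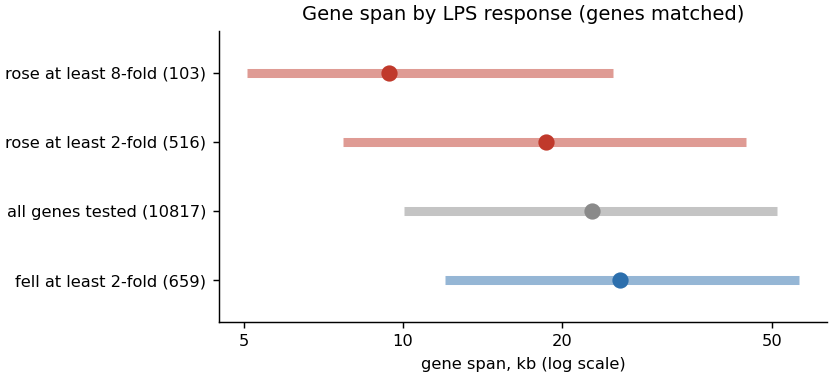
Gene span in kb (log axis) for genes that fell at least 2-fold, all genes tested, and genes that rose at least 2-fold or 8-fold, with the number matched to the annotation in brackets; points are medians and bars run from the 25th to the 75th percentile. The median was 9.42 kb for genes that rose at least 8-fold and 22.8 kb for all genes.

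Some risen genes lay next to each other. Of 10796 pairs of neighbouring tested genes both members rose at least 2-fold in 81 (0.75%) and both fell in 75, and 143 of 516 positioned genes that rose had a rising neighbour. Runs of at least 3 neighbours numbered 11 for rises and 9 for falls. Il1a, Il1b and Il1bos formed a run on chromosome 2 with the predicted Gm14023 (129297370 to 129375748), where Il1bos is antisense to Il1b and its reads cannot be told from those of Il1b. Ltb, Tnf and Lta lay on chromosome 17 (35194439 to 35205351), Ccl22, Cx3cl1 and Ccl17 on chromosome 8 (94745590 to 94812036), Ifit2, Ifit3, Ifit3b and Ifit1 on chromosome 19 (34550694 to 34650009), and Pdlim5 with Gbp5, Gbp7, Gbp3, Gbp2b and Gbp2 on chromosome 3 (142239590 to 142638008). Many of the rising runs are families of related genes, and close copies are not independent observations.

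Motif matches were counted in the promoters of 8769 of the 10899 tested genes, taken from the RefSeq table, where a gene can have several starts. The kB letters were present in 9.35% of 524 promoters of genes that rose at least 2-fold, in 12.1% of 99 promoters of those that rose at least 8-fold, in 4.07% of 713 promoters of genes that fell and in 5.25% of 11135 promoters of all tested genes. For the ISRE letters the shares were 6.49, 10.1, 1.82 and 2.78% in the same order. For the AP-1 letters they were 8.78, 13.1, 5.33 and 4.31%, and for the cyclic AMP response element (CRE, TGACGTCA) 3.05, 4.04, 0.982 and 2.78%. The CArG box, bound by serum response factor, was at 3.05, 5.05, 0.561 and 0.997%. The 5.05% was 5 of 99 promoters and rests largely on Egr2. Its promoters beginning at 67537316, 67537619, 67537620 and 67537680 each held a match, several of them at the same site. Shares count promoters, so a gene with several starts enters more than once. In all 32851 promoters of the table the shares were 4.65% for kB, 2.98% for ISRE, 6.75% for AP-1, 1.55% for CRE and 1.47% for CArG. Each share was higher among the genes that rose than among all tested genes, though for CRE barely (3.05 against 2.78%). Most promoters of the risen genes held none of these letters in the 250 bases. Il1b was among them, and so were Irg1 and Ccl22.

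The wild-type response was next compared with that of Parp14 -/- cells, by the difference of the 2 responses over all genes; these responses share no library. The difference was higher for 182 genes (1.67%) and lower for 231 (2.12%). Leaving out 1 library gave 99 (without knockout LPS replicate 1) to 171 higher and 133 (without untreated knockout replicate 1) to 180 lower, and without a filter on low values 97 were higher. Among the 518 genes that rose at least 2-fold in wild-type cells 33 (6.37%) had a higher and 96 (18.5%) a lower difference, that is a smaller response in the knockout. Among the 663 that fell 28 (4.22%) had a higher and 17 (2.56%) a lower difference. Both sets were chosen by the wild-type response, which is subtracted in this difference. That choice by itself favours lower differences among the risen genes and higher ones among the fallen, so these shares are no test. Fitted without the replicate block only 14 and 31 genes of all were called, so most of these calls depended on the block. Parp14 itself was at 76.4 and 99.7 CPM in untreated wild-type and 10 and 12 CPM in untreated knockout libraries, and with LPS at 315 and 419 CPM in wild-type and 34.9 and 40.5 CPM in knockout libraries.

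None of the 11 NF-kB and IkB genes was called as differing in response between genotypes by limma, edgeR or DESeq2 (2 had an unadjusted limma p under 0.05). Over all genes limma called 1.67% higher and 2.12% lower, so no call among 11 genes is near that share. Of the interferon-stimulated genes, 39 of 54 had a lower difference, 37 of them among the 52 that rose (median difference -0.59). Of the 39 calls 11 were also made without the block. The count tests called 34 (edgeR) and 30 (DESeq2) of the same list. Gbp5 reached 9.59 and 11.6 CPM with LPS in wild-type and 1.28 and 1.33 CPM in knockout cells (difference -2.06, SE 0.16, adjusted p = 8.39e-06). Csf1 reached 34.1 and 35.7 CPM in wild-type and 7.01 and 5.95 CPM in knockout cells (-2, SE 0.15, adjusted p = 8.39e-06). Rsad2, the gene of the antiviral protein viperin, reached 48.6 and 54.8 CPM in wild-type and 7.01 and 10.6 CPM in knockout cells (-1.85), Cxcl11 11.4 and 11.5 CPM in wild-type and 1.42 and 2.39 CPM in knockout cells (-1.9) and Ifit2 21.6 and 25.7 CPM in wild-type and 4.65 and 7.51 CPM in knockout cells (-1.73). In each of these genes the knockout libraries with LPS lay below both wild-type libraries with LPS. The difference for Gbp5 was called neither by edgeR (adjusted p = 0.114) nor by DESeq2 (adjusted p = 0.0615), and that for Cxcl11 was not called by edgeR (adjusted p = 0.0553). Hpgd, which breaks down prostaglandins, fell in wild-type cells from 2.16 and 0.925 to 0.197 and 0.0731 CPM and in knockout cells from 201 and 119 to 11.5 and 5.92 CPM; its difference of -2.94 was not called without the block (adjusted p = 0.0658), and the count tests gave -0.77 (edgeR, adjusted p = 0.614) and -0.76 (DESeq2, adjusted p = 0.85).

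The positive differences included genes that rose and genes that fell in wild-type cells. Osm went from 3.63 and 2.25 to 11.5 and 10 CPM in wild-type and from 2.93 and 2.56 to 30.6 and 25.2 CPM in knockout cells (difference 1.35, SE 0.14, adjusted p = 7.23e-05). Arl11, a small GTPase gene, fell in wild-type cells from 20.2 and 13.7 to 1.2 and 0.975 CPM and went in the knockout from 14.3 and 9.88 to 3 and 2.08 CPM (difference 1.21; adjusted p = 0.324 without the block). For Csf3 (1.32), Serpinb2 (2.21) and Mmp9 (1.7), all under 0.3 CPM in untreated wild-type cells, the direction turned in the count tests, to -0.0892, -1.14 and -1.42 with edgeR, without being called. With LPS, Csf3 stood at 116 and 131 CPM in wild-type and 462 and 413 CPM in knockout cells, Serpinb2 at 5.23 and 5.14 CPM in wild-type and 29.2 and 28.1 CPM in knockout cells and Mmp9 at 6 and 7.63 CPM in wild-type and 107 and 112 CPM in knockout cells. Their untreated knockout levels are not given here, so these LPS levels do not show a stronger response. With 0.25 added to CPM in place of 1, the Mmp9 difference was 0.4 (limma, adjusted p = 0.463). Cxcr4 fell in wild-type cells, and its difference (1.21) was not called under 13 of 16 alternatives.

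With Jak kinases inhibited, the wild-type response was compared in the same way with that without the inhibitor, and these responses share no library either. The difference was higher for 133 genes (1.22%) and lower for 185 (1.7%), or 2 and 62 without the block. Among the 518 genes that rose 67 (12.9%) had a smaller and 1 (0.193%) a larger response with the inhibitor, and among the 663 that fell 10 (1.51%) had a higher and 7 (1.06%) a lower difference. The count of higher genes also depended on a single library, falling to 26 without LPS with inhibitor replicate 1 and rising to 242 without replicate 2 of that group. Both comparisons use the same wild-type response, so their values are given side by side and not correlated. That response also chose the 518 and 663 genes, which favours lower differences among the risen and higher ones among the fallen here too.

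Of 54 interferon-stimulated genes 50 had a lower difference with the inhibitor, 48 of them among the 52 that rose (median difference -1.32). Of the 50 calls 31 were also made without the block. Of these 54 genes, 36 ended on average below the level in cells with the inhibitor alone. The share of all genes that did so is not given here. In the response without the inhibitor 62.8% of all genes were lower under this scaling. With the inhibitor, 34 of 44 chromatin regulators and 37 of 45 lysosomal genes ended below that level, and 0 of 11 CC chemokine genes. Mx2, an antiviral GTPase, went from 5.1 and 6.3 to 67.6 and 69 CPM with LPS alone, but from 4.36 and 6.91 to 4.81 and 6.41 CPM with the inhibitor (-3.36, SE 0.14, adjusted p = 1.87e-09). Rsad2 reached 4.81 and 5.27 CPM with the inhibitor (-3.13) and Cmpk2, its neighbour, 4.16 and 4.55 CPM in place of 36.5 and 39.6 (-2.96). Ifit2 went below its starting level, from 11.7 and 10.8 to 2.08 and 3 CPM (-2.91), as did the GTPase genes Irgm2, from 11.8 and 14.7 to 5.28 and 7.86 CPM (-2.66), and Irgm1, from 48.9 and 62.9 to 29.1 and 35.6 CPM (-2.48). Ifit1, in contrast, went up, from 4.33 and 4.88 to 39.5 and 39 CPM (-2.07). The plot of 6 genes in all groups shows these levels.

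**Figure D5:**
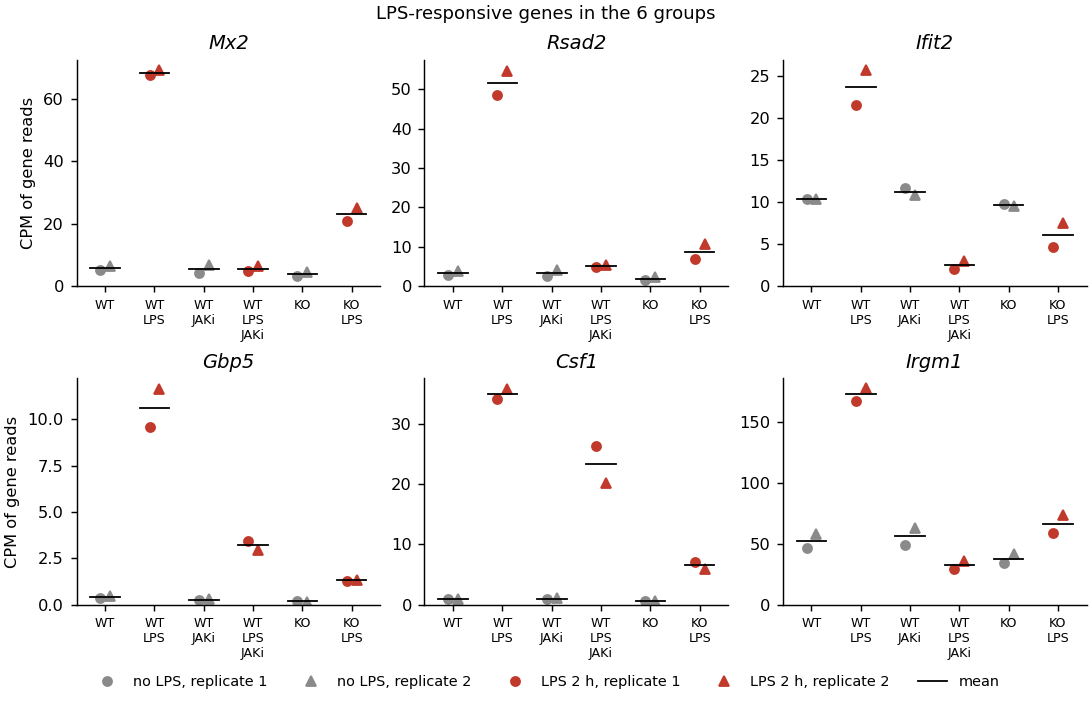
Level of 6 LPS-responsive genes in CPM of gene reads in the 6 groups (WT, wild-type; KO, Parp14 -/-; JAKi, Jak inhibitor), with red for libraries with LPS, grey without, circles for replicate 1, triangles for replicate 2 and a bar for the mean. Mx2, Rsad2, Ifit2 and Irgm1 with LPS and inhibitor lie near or under the levels without LPS, while Csf1 is lowest after LPS in the knockout, at 7.01 and 5.95 CPM.

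Ifnb1 itself reached 24.2 and 28.4 CPM with LPS and the inhibitor and 31.7 and 27.7 CPM with LPS alone, and the difference of the responses (-0.22, SE 0.17, adjusted p = 0.511) was not called. In the knockout it reached 10.7 and 14.4 CPM (-1.19, SE 0.17, adjusted p = 0.00102), a difference not called by edgeR (adjusted p = 0.85) or DESeq2 (0.938). With the inhibitor 0 of 11 NF-kB and IkB genes were called by limma, edgeR or DESeq2, and 4 had an unadjusted limma p under 0.05. Of the 11 CC chemokine genes 0 were called by the same tools and 0 had such an unadjusted p. Over all genes limma called 1.22% higher and 1.7% lower with the inhibitor. For both lists 0 of 11 is near that share. In the knockout limma called 4 of the CC chemokine genes lower, Ccl7 (-1.95), Ccl2 (-1.12), Ccl5 (-1.01) and Ccl17 (-0.69), and edgeR and DESeq2 called 0. For Ccl7 edgeR gave the opposite sign (0.41), and Ccl2, Ccl5 and Ccl17 were not called without the block (adjusted p = 0.582, 0.0567 and 0.0509). In sterol and fatty acid synthesis 10 of 34 genes had a higher difference with the inhibitor, led by Hmgcs1 (0.7) and Mvd (0.6), and 2 of them were called without the block. Neat1 went from 93.1 and 115 to 46.7 and 74.5 CPM with the inhibitor, a smaller step than without it (difference 0.92, SE 0.16, adjusted p = 0.00323; 0.369 without the block, and also not called without a filter on low values).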

How the data were processed

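Total RNA of 12 libraries was extracted with a Maxwell 16 LEV Simply RNA kit and sequenced after TruSeq preparation, per the labels' protocols. The deposited table holds CPM values per gene symbol, which the authors made with TopHat2 2.1.0, HTSeq and edgeR on mm10 (GRCm38), per the submitters' processing notes. HTSeq and edgeR versions, annotation and strand setting were not given in the sources used here. Of its 16 columns 12 matched the labels and 4 were not used. Its 5 summary lines (reads in no gene, ambiguous or not unique) were dropped. They held the remainder beside the 61.5 to 64.0% of reads in genes of the 4 wild-type libraries, 28.7 to 32.1% being not unique. CPM was rescaled to the sum of gene reads. All values came out as whole reads (100%, tolerance 0.02), which gave the depth and the counts for edgeR 4.0.16 and DESeq2 1.42.0 as alternatives.

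The main test was limma 3.58.1 (R 4.3.3, eBayes with trend) on log2(CPM + 1), with 6 group means and the replicate number as a block, over all 12 libraries so that they share 1 estimate of spread, for genes that reached 1 CPM in 2 or more libraries. The 2 interactions came from the same fit. Same-numbered libraries deviated together from their group means in 15 of 15 pairs of groups (correlation 0.468 to 0.737), so the numbers were taken to pair the samples. Replicates differed by more than sampling noise (chi-square per degree of freedom 16.4 untreated, 30.5 with LPS). The test was checked on simulated data. A rise or fall needed an adjusted p under 0.05 and the same direction in both scalings, the second being median-of-ratios over genes of at least 5 CPM in all libraries, a rule chosen after values were seen. Named genes were the 12 largest changes in each direction in both scalings with at least 5 CPM in 1 group mean and a symbol that is not a predicted gene (1 was skipped), with groups that did not overlap. For each interaction they were the 6 largest in each direction among genes changed at least 2-fold in wild-type cells. In lists, the largest changes and highest levels were named, with other members of known role chosen after their values were seen. The members and lists were chosen with earlier results of these data known. Gene positions are from GENCODE M21 (GRCm38), matched by symbol for 10817 of 10899 genes, and promoters from RefSeq (GRCm38.p6). Some members are not reported here.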

Additional observations from a re-analysis of the deposited data

Results flagged for a closer look

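For the genes below the response to LPS differed between 2 kinds of cell or treatment by a test of the difference itself (limma interaction, adjusted p under 0.05 over all genes). They are, for each comparison, the 6 largest differences in each direction among genes that changed at least 2-fold with LPS in wild-type cells, as log2 differences of responses. The wild-type response that chose these genes is also subtracted in each difference.

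For the knockout against wild-type cells, the positive differences were Serpinb2 (2.21), Mmp9 (1.7), Osm (1.35), Csf3 (1.32), Cxcr4 (1.21) and Arl11 (1.21). The negative differences were Hpgd (-2.94), Gbp5 (-2.06), Csf1 (-2), Cxcl11 (-1.9), Rsad2 (-1.85) and Ifit2 (-1.73). Serpinb2, Mmp9 and Csf3 were under 0.3 CPM in untreated wild-type cells, and the count tests gave them the opposite sign without a call. Cxcr4 fell in wild-type cells from 7.35 and 3.05 to 0.197 and 0.171 CPM and in knockout cells from 1.88 and 1.07 to 0.111 and 0.187 CPM. Hpgd was higher in the knockout both without and with LPS, going from 201 and 119 to 11.5 and 5.92 CPM beside 2.16 and 0.925 to 0.197 and 0.0731 CPM in wild-type cells. The wild-type levels of Hpgd were thus mostly under or near 1 CPM, and its difference was -0.77 with edgeR and -0.76 with DESeq2, neither called.

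For LPS with the Jak inhibitor against LPS without it, the positive differences were Neat1 (0.923), Lzts2 (0.529), Arhgef39 (0.457), Fam64a (0.451), Agap3 (0.433) and Thap11 (0.412). The negative differences were Mx2 (-3.36), Rsad2 (-3.13), Cmpk2 (-2.96), Ifit2 (-2.91), Irgm2 (-2.66) and Irgm1 (-2.48). The positive differences were smaller in size than all 6 negative ones, and those of Lzts2, Thap11 and Arhgef39 were lost under 13, 11 and 9 of 16 alternatives.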

How the results depend on the processing

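Calls of the 24 named genes of the wild-type response held in all 312 combinations of gene and setting, and those of the list members named one by one as risen or fallen held in 2829 of 2840, with none reversed. Median-of-ratios rescaling, counted among the settings, was part of the rule for these calls and could not fail. The 24 named genes were also picked as the largest called changes, for which the other settings were a weak check. Of 136 list counts under single alternatives 31 moved by more than 1.5 times. Cytosolic ribosomal proteins went from 13 higher and 5 lower to 75 and 0 under median-of-ratios and to 2 and 1 without the block. The counts over all genes depended on the scaling and the test. Of 1959 genes higher and 6847 lower, median-of-ratios rescaling gave 3817 and 4380, edgeR 3989 and 4227, and DESeq2 3942 and 3693. At least 2-fold, 518 higher became 659 under median-of-ratios, 804 with edgeR and 826 with DESeq2, and 1217 lower under gene-read scaling alone became 663 under median-of-ratios. Leaving out 1 of the 4 libraries gave 1732 to 1843 higher and 6388 to 6468 lower, and 518 to 530 and 1161 to 1318 at least 2-fold.

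Without the replicate block, the pairing by number, the main counts were 1493 higher and 5839 lower. The block mattered most for the interactions, where the knockout difference went from 182 higher and 231 lower to 14 and 31, and the inhibitor difference from 133 and 185 to 2 and 62. Without a filter on low values the higher counts were 97 (knockout) and 40 (inhibitor). The inhibitor count of higher genes was also 72 under median-of-ratios, 436 with the deposited scaling and 60 with DESeq2.

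Leaving out 1 library gave 99 (without knockout LPS replicate 1) to 171 higher and 133 (without untreated knockout replicate 1) to 180 lower for the knockout difference. Its higher count was 102 without wild-type untreated replicate 1 and 103 and 117 without untreated knockout replicates 1 and 2. For the inhibitor difference the ranges were 26 to 242 higher and 137 to 306 lower, both from leaving out replicate 1 and then 2 of LPS with inhibitor. The higher count was 31 and 80 without wild-type untreated replicates 1 and 2, 32 without wild-type LPS replicate 1, and 41 and 68 without inhibitor replicates 1 and 2.

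The direction of 3 of the 12 named knockout differences turned with edgeR and DESeq2: Serpinb2 (-1.14 and -0.60), Mmp9 (-1.42 and -1.44) and Csf3 (-0.089 and -0.11). That of Ccl7 turned with edgeR (0.41). The other named differences kept their direction in the settings run. Of 192 combinations for the 12 knockout differences, 22 kept the direction but lost the call, and 6 turned, also without a call. For the inhibitor 39 of 192 kept the direction but lost the call. The cause of these changes was not tested. With 2 libraries a group, small changes are the least certain.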
